A study of Mus musculus with 8 samples.

Results

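The Dlk1-Dio3 cluster is an imprinted stretch of mouse chromosome 12. It was examined here in motor neuron cultures made from mouse embryonic stem cells, with and without a knockout of Litchi. The members were 7 named genes, Meg3, Mirg, Rian, Dlk1, Rtl1, Dio3 and Begain, and 2 intervals that the array names only by position, chr12:110894095-110899517_F (interval A below) and chr12:110909258-110913909_F (interval B), both on the forward strand of the mouse build mm9. Probes were taken where their RefSeq accession led to a member's symbol or where their name was one of the intervals. This gave 14 probes for 8 features, out of 55681 probes on the array, while no probe led to Rian. The Rtl1 probe was not well above background on any of the 8 arrays, so 7 features were tested among 24623 genes. A probe entered the tests when, in 1 group or more, neither array had it near background. The members were chosen by their knockout differences on these same arrays, so values of the knockout set against the control are given below as a description with no test.

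All cells were of a male Hb9GFP embryonic stem cell line. Embryoid bodies, the free-floating aggregates in which such cells differentiate, received RA and Shh between day 2 and day 5, were made into single cells on day 5, and then had GDNF until they were sampled. The 4 groups, with 2 arrays each, were day 7 cultures of the Litchi knockout and of the control, and day 9 cultures of the knockout and of the control. The labels give neither the Litchi allele, nor the number of knockout clones, nor whether the 2 arrays of a group came from separate cultures, so p-values measure the spread between these arrays, which may be technical. Litchi was not found among the gene names, so its own level is not given and the knockout label rests on the titles.

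An imprinted gene is read mainly from the copy inherited from one parent. In this cluster Meg3, Rian and Mirg are long noncoding RNAs of the maternal chromosome, all transcribed in the same direction, and many small RNAs lie within them. Dlk1, Rtl1 and Dio3 are protein genes of the paternal chromosome. A methylated control region upstream of Meg3 keeps the paternal copy of Meg3 silent and the paternal protein genes active. Dlk1 is a membrane protein related to the Notch ligands, Rtl1 is a protein derived from a retrotransposon that is needed in the placenta, and Dio3 is the deiodinase that inactivates thyroid hormone. Begain lies on the far side of Dlk1 and encodes a protein found at synapses.

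Promoter sequences are shown of the maternal RNAs that were measured and of the paternal gene that lay opposite to them. The levels of these genes differed between the genotypes, and the arrays did not measure which start was used. The sequences run from 250 bases before to 50 bases after the start and come from RefSeq on GRCm38.p6, a different build from the array's mm9. They are written in the gene's direction with motif matches in capitals. The first is the Meg3 promoter at its upstream start (chr12:109540746-109541045, forward strand), the next the Mirg promoter (chr12:109734731-109735030, forward strand) and the last the Dio3 promoter (chr12:110278980-110279279, forward strand).
Meg3: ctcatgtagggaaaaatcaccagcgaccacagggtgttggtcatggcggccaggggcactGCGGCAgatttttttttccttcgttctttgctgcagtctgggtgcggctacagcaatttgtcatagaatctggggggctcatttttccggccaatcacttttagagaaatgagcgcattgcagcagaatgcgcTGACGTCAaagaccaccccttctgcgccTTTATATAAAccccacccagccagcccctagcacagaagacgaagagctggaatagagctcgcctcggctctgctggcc
Mirg: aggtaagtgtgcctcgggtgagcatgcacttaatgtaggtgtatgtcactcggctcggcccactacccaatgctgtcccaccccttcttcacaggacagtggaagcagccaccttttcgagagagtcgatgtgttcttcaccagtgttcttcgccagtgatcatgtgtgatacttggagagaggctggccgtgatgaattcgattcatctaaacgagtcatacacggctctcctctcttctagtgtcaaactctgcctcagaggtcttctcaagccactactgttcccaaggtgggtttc
Dio3: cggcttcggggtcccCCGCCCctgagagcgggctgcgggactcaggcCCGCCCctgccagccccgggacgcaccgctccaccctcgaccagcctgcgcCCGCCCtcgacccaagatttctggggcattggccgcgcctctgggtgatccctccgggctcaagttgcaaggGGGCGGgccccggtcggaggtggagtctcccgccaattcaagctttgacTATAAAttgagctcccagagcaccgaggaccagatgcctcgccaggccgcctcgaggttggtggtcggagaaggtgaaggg

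The letters searched on both strands were TATAAA (the TATA box), TGACGTCA (the cAMP response element), TGCCGC (bound by the imprint-keeping protein ZFP57 when methylated) and GGGCGG (the GC box). In the Meg3 window TATAAA began 25 bases before the start and overlapped a copy on the other strand that began 29 bases before it. TGACGTCA began 57 bases before the Meg3 start and the ZFP57 letters, on the other strand, 190 bases before it. The Dio3 window held TATAAA 31 bases before the start and GC boxes at 80, 152, 203 and 235 bases before it, the last 3 on the other strand. The Mirg window held none of the 4 motifs. Among 32851 promoters of the same length, 13.6% held TATAAA, 1.79% TGACGTCA, 11.6% TGCCGC and 35.7% GGGCGG. These are matches of letters and not measured sites.

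RefSeq places 58 miRNA hairpins with 113 named mature forms between the starts of Meg3 and Dio3, and 10 of these hairpins, with 19 mature forms, lie within Mirg. The arrays measured the long host RNAs and not the mature miRNAs. The mature forms within Mirg carried 18 different seeds (bases 2 to 8). One seed was shared, by the first 2 sequences below, and the third, miR-410-3p, comes from one of the other hairpins of this host. Capitals mark the seed.
mmu-miR-453: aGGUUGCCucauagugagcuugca
mmu-miR-496a-5p: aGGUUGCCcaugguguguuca
mmu-miR-410-3p: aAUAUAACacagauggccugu

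Levels are the processed signal of a probe as a percent of the 75th percentile of signals on its array, and levels of different probes cannot be set against each other. Changes are differences of group means of log2 levels with their standard error (SE) from limma, over 2 arrays per group. The 75th percentile ran between 649.32 and 1691.39 intensity units over the 8 arrays, and in all 4 groups the replicate 1 array was the brighter one. No spot was saturated, and the 2 arrays of a group correlated across genes at a Pearson r between 0.9895 and 0.994, given as a description since genes are not independent replicates. All 6 listed motor neuron markers were measured. On day 7 their summed levels were 3663% and 4136% in the knockout, against 3960% and 4137% in the control. On day 9 the sums were 1014% and 1223% in the knockout, against 2007% and 1355% in the control. Of the 6 markers, 1 was higher in knockout cells on day 7 and 2 were on day 9. At an adjusted p under 0.05 by limma, 0 were called on day 7, and 1 was called higher and 2 lower on day 9. Of all genes, 1.52% were called higher and 3.94% lower on day 9. In such mixed cultures, fewer cells of a type and less RNA per cell cannot be told apart.

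Meg3, the noncoding RNA at the head of the maternal transcripts, was higher in knockout cells on both days. Its level was 804% and 806% on the knockout arrays of day 7, against 209% and 134% on the control arrays. On day 9 it was 790% and 866% in knockout cells, against 172% and 179% in control cells. The genotypes did not overlap on either day, and within each genotype the ranges of the days did. The log2 change was 2.27 ± 0.22 on day 7, which is 4.81-fold, and 2.24 ± 0.22 on day 9, which is 4.71-fold.

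A second Meg3 probe read 96.0% and 73.0% in knockout and 21.2% and 17.2% in control on day 7, and 81.4% and 106% in knockout and 24.4% and 15.9% in control on day 9. The third read 64.7% and 58.2% in knockout and 17.6% and 15.1% in control on day 7, and 63.5% and 59.6% in knockout and 18.7% and 15.8% in control on day 9. Both separated the genotypes on both days. Over the 3 Meg3 probes the log2 change ran between 1.91 and 2.27 on day 7 and between 1.84 and 2.24 on day 9.

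Mirg, the noncoding host of the miRNAs shown above, was also higher in knockout cells, with a control level that differed between the days. Its level was 302% and 252% in knockout cells on day 7, against 125% and 111% in control cells. Day 9 levels were 264% and 184% in knockout cells, against 58.1% and 62.9% in control cells. All knockout arrays lay above all control arrays, and within the control the day 9 arrays lay below those of day 7. The log2 change by genotype was 1.23 ± 0.21 on day 7 (2.34-fold) and 1.87 ± 0.21 on day 9 (3.64-fold).

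**Figure D1:**
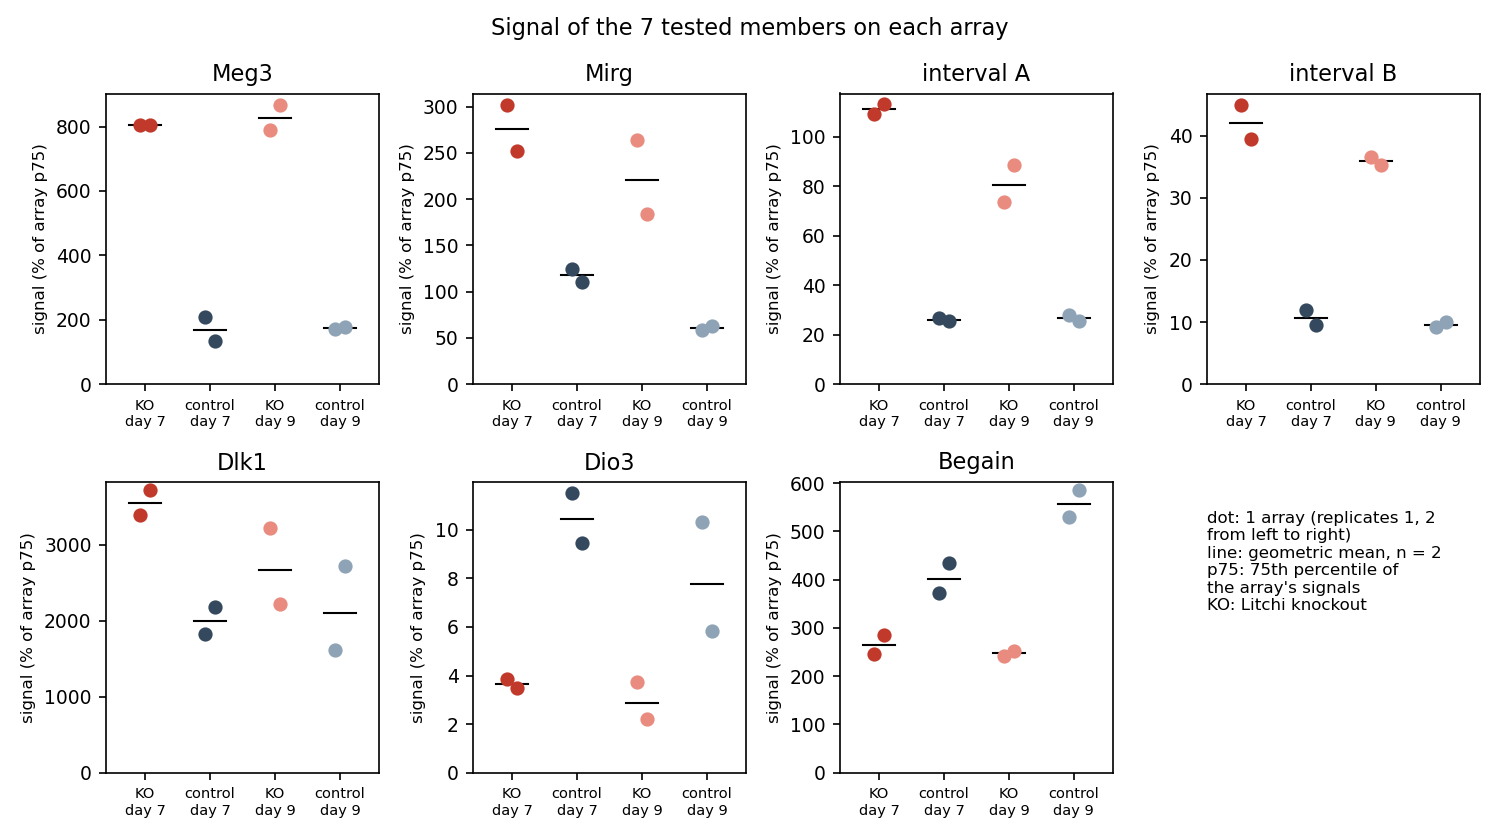
Signal of the 7 tested members on each of the 8 arrays, as a percent of the 75th percentile of signals on that array, on linear axes that start at 0. Dots are single arrays, lines are geometric means of 2 arrays, and knockout stands left of control within each day. Meg3, Mirg, interval A and interval B lie higher in knockout cells on both days, Dio3 and Begain lower, and Dlk1 overlaps between the genotypes on day 9.

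The files give no gene name for the 2 position-named intervals, and both were higher in knockout cells, as Meg3 and Mirg were. The main probe of interval A read 109% and 113% in knockout cells on day 7, against 26.7% and 25.5% in control cells. The day 9 readings were 73.5% and 88.4% in knockout cells, against 27.9% and 25.5% in control cells. The genotypes stayed apart, with the knockout arrays of day 9 below those of day 7 and the control arrays in the same range on both days. Its log2 change by genotype was 2.09 ± 0.14 on day 7 and 1.59 ± 0.14 on day 9. The other probe of interval A read 79.6% and 83.7% in knockout and 19.4% and 17.8% in control on day 7, and 70.1% and 70.2% in knockout and 22.0% and 17.4% in control on day 9, with the genotypes again apart.

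The main probe of interval B read 45.0% and 39.4% in knockout cells on day 7, against 12% and 9.46% in control cells. Readings on day 9 were 36.6% and 35.3% in knockout cells, against 9.15% and 10.1% in control cells. Knockout arrays were above control arrays throughout, by 1.98 ± 0.16 on day 7 and 1.91 ± 0.16 on day 9 (log2). The other 2 probes of interval B changed by 1.82 and 2.43 on day 7 and by 1.24 and 1.99 on day 9. The one with the larger change had 1 of 2 control arrays not well above background on each day. It thus passed the filter only through the knockout arrays, which favours higher values there. With background corrected by another method, normexp, the main probe changed by 1.40 on day 7 and 1.34 on day 9.

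**Figure D2:**
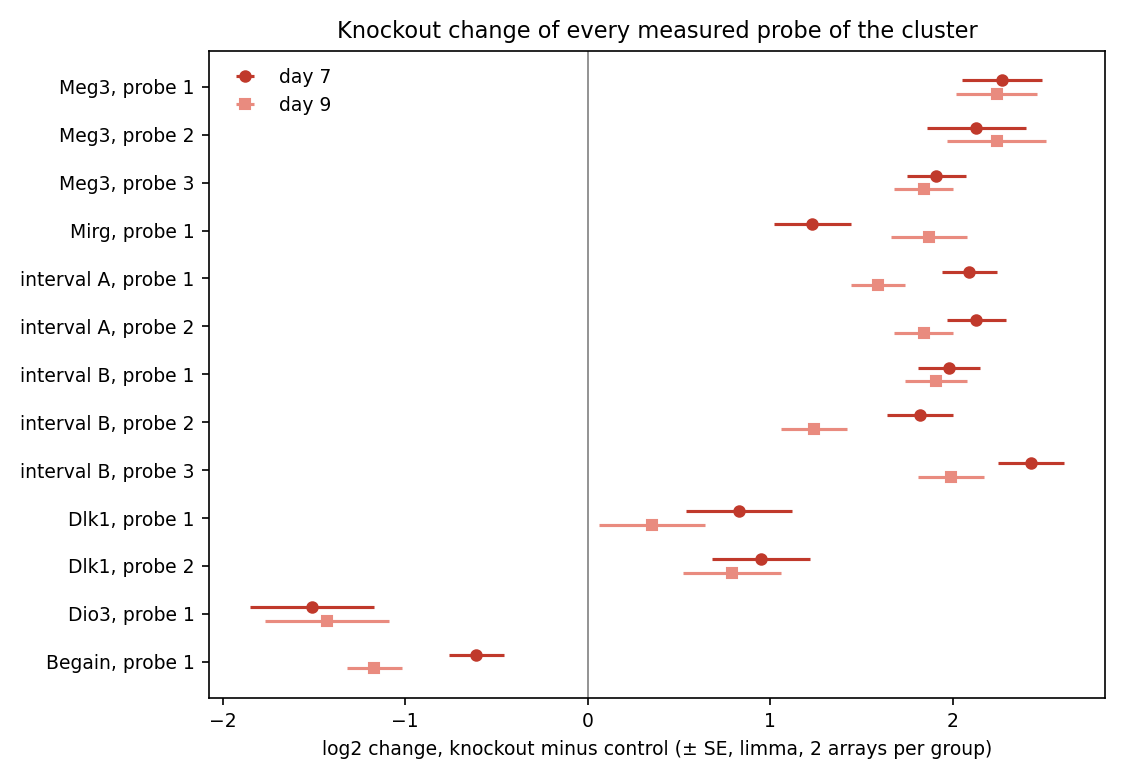
Log2 change, knockout minus control, of the 13 measured probes of the cluster on day 7 (circles) and day 9 (squares), each from a fit in which every kept probe was tested on its own. Bars are ± SE from limma with 2 arrays per group. The 9 probes of Meg3, Mirg and the intervals lie between 1.23 and 2.43, the Dlk1 probes between 0.35 and 0.95, and Dio3 and Begain below 0. The probe of interval B at 2.43 passed the filter only through the knockout arrays, which favours higher values there.

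Dlk1, the Notch-related membrane protein gene of the paternal chromosome, was higher in knockout cells on day 7 and overlapped between the genotypes on day 9. Its main probe read 3390% and 3720% in knockout cells on day 7, against 1820% and 2180% in control cells. Day 9 arrays read 3220% and 2220% in knockout cells, against 1620% and 2720% in control cells. The day 9 arrays of the same replicate number differed by 0.99 and -0.29 (log2, knockout minus control), so the direction was not the same in both. The log2 change was 0.83 ± 0.29 on day 7 and 0.35 ± 0.29 on day 9, where leaving out control replicate 1 gave -0.02. The other Dlk1 probe read 407% and 534% in knockout and 205% and 283% in control on day 7, and 449% and 437% in knockout and 206% and 320% in control on day 9. That probe kept the genotypes apart on both days, with changes of 0.95 ± 0.27 and 0.79 ± 0.27.

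The list of 8 mesenchyme and fibroblast markers, cells in which Dlk1 is also known, moved with the genotype: all 8 were higher in knockout cells on both days, and 3 of them passed the test on day 9. Of all genes, 1.52% were called higher on day 9. Their summed level was 7146% and 5249% in knockout and 3691% and 2533% in control on day 7, and 14180% and 12270% in knockout and 6827% and 7807% in control on day 9. No listed marker was below background on all arrays. The part of these cells in the Dlk1, Meg3 and Mirg values was not tested.

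The trophoblast markers moved the other way, and by more. Placental cells are known to express Rtl1 and other genes of the cluster. All 4 tested markers of 5 listed were lower in knockout cells on both days, with 1 called on day 7 and all 4 on day 9. Of all genes, 0.11% were called lower on day 7 and 3.94% on day 9. The sums below are of the markers. Their summed level was 21.15% and 38.06% in knockout, against 141.6% and 167.5% in control, on day 7. On day 9 the sum was 21.57% and 17.0% in knockout, against 150.4% and 422.3% in control. Their part in the cluster values was not tested.

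Dio3, the thyroid hormone inactivating enzyme, was lower in knockout cells. Its level was 3.84% and 3.50% in knockout cells on day 7, against 11.5% and 9.46% in control cells. On day 9 it was 3.73% and 2.22% in knockout cells, the lower of which was not well above background, against 10.3% and 5.84% in control cells. The genotypes did not overlap on either day, though these are dim spots. The log2 change was -1.51 ± 0.34 on day 7, a level 2.84-fold lower, and -1.43 ± 0.34 on day 9, a level 2.69-fold lower. Under normexp background correction these became -0.83 and -0.79.

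Rtl1 had 1 probe, with levels of 0.426% and 0.668% in knockout and 0.294% and 0.819% in control on day 7, and 0.615% and 0.541% in knockout and 0.465% and 0.687% in control on day 9. None of these was well above background, so no change is given for it.

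Begain, the synaptic protein gene at the edge of the cluster, was lower in knockout cells. Its level was 245% and 285% in knockout cells on day 7, against 372% and 435% in control cells. On day 9 it was 242% and 253% in knockout cells, against 529% and 585% in control cells. The knockout arrays of both days lay in one range, below the control arrays of day 7, and those of control on day 9 were highest. The log2 change was -0.61 ± 0.15 on day 7 and -1.17 ± 0.15 on day 9. The 5 listed neuron markers were all lower in knockout cells on both days, with a summed level of 14630% and 13890% in knockout and 20590% and 23010% in control on day 7, and 8245% and 8522% in knockout and 16770% and 13470% in control on day 9. Of these 5 markers, 1 was called lower on day 9, where 3.94% of all genes were called lower. The markers' part in the Begain and Dio3 values was not tested.

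By the fit over all genes, 3 of the 7 tested members were called higher and 0 lower at an adjusted p under 0.05 on day 7, where 0.203% of all genes were called (0.0934% higher and 0.11% lower), and 4 were called higher and 1 lower on day 9, where 5.45% were called (1.52% higher and 3.94% lower). Called on day 7 were Meg3 and both intervals, and on day 9 also Mirg and Begain. Since this contrast chose the members, the counts are a description. The median log2 change of the members was 1.23 on day 7 and 1.59 on day 9, beside -0.05 and -0.02 over all genes. The counts rest on few arrays. On day 7, 0 members were called without knockout replicate 1, without knockout replicate 2 or without control replicate 2 of that day, and 1 without either knockout array of day 9. On day 9, 0 were called without knockout replicate 2 or without control replicate 1 of that day, and 1 without knockout replicate 1.

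Arrays of the knockout lay all above those of the control on day 7 for 5 members and all below for 2, against 20.6% and 27.8% of all genes. On day 9 they lay above for 4 members and below for 2, against 27.2% and 32.5% of all genes.

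Other position-named probes within 1 Mb of the 2 intervals were also read, 50 kept probes in 22 intervals. Between chr12:110842149 and chr12:110988678 on mm9, bounds that were set after the values were seen, 17 forward-strand probes were kept. Of these, 8 passed the filter only through the knockout arrays, which favours higher values there, and they are not counted here. On the forward strand 7 probes were above background on all 8 arrays. Of these, 6 were higher in knockout cells on both days. Over all 7 the median log2 change was 1.12 on day 7 and 1.03 on day 9. Values ran from -0.07 to 2.00 on day 7 and from -0.02 to 1.73 on day 9. A change of 1 or more was seen in 4 of the 7 on each day.

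On the reverse strand inside these bounds, 4 of 8 kept probes likewise passed only through the knockout. The 3 reverse probes above background on all 8 arrays were mixed. On each day 1 was higher in knockout cells, by 1.17 on day 7 and 1.58 on day 9, which is within the forward range. The medians of the 3 were -0.15 on day 7 and -0.53 on day 9. Outside the bounds, 21 probes were above background on all 8 arrays, and 1 was higher in knockout cells on day 7 and 0 on day 9, with a median of -0.32 on both days. Neighbouring intervals overlap, so these probes are not independent, and since the bounds follow the values, the contrast between inside and outside is a description.

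**Figure D3:**
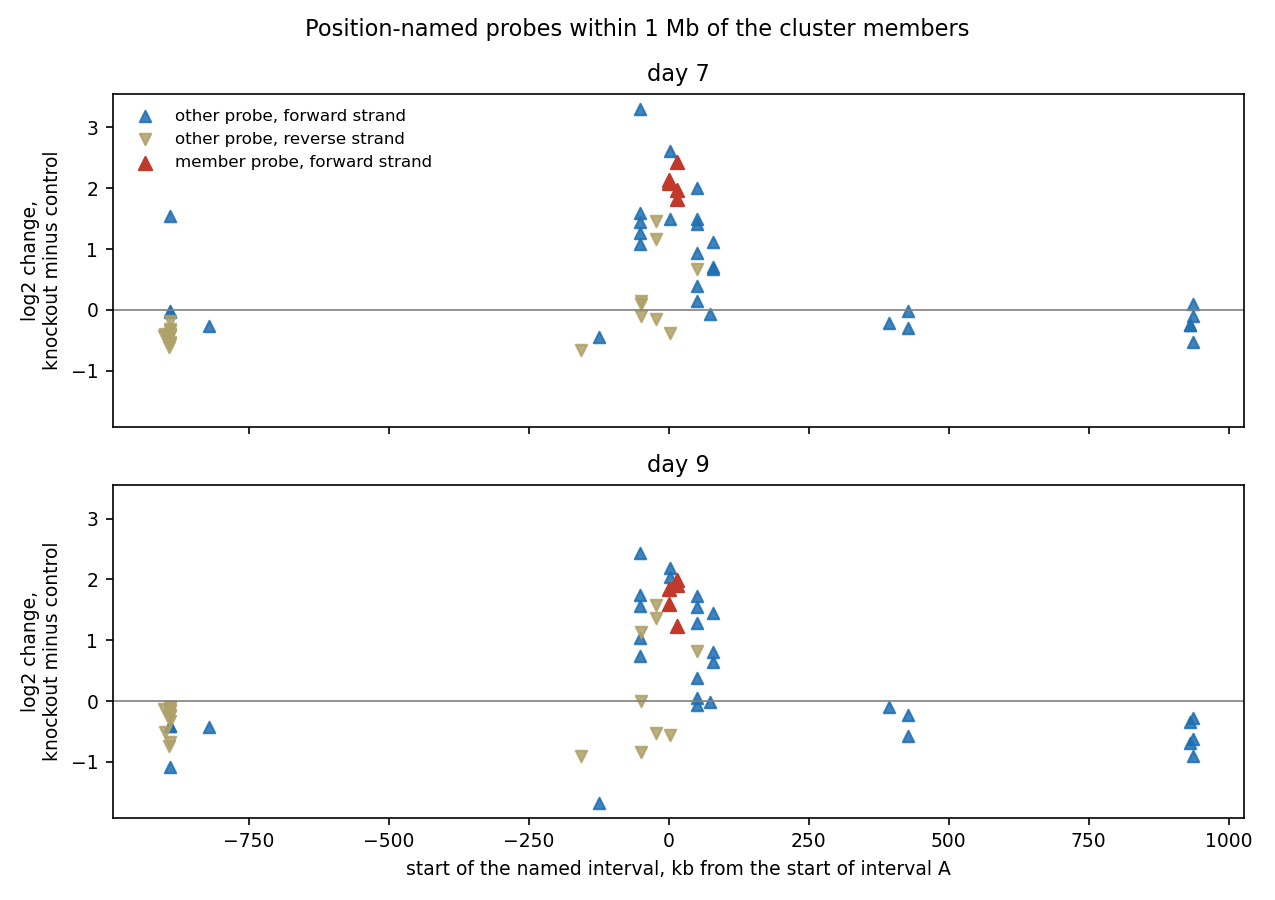
Log2 change, knockout minus control, of position-named probes by the start of their interval in kb from the start of interval A, for day 7 (upper) and day 9 (lower). Triangles up are forward-strand and triangles down reverse-strand probes, and red marks the probes of the 2 intervals. All kept probes are drawn, including those that passed the filter only through the knockout arrays. The 6 higher forward-strand probes measured on all 8 arrays lie between 0.05 and 2.00, and probes further out lie mostly below 0. The probe at 1.54 far to the left on day 7 was above background on 3 of 8 arrays.

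Genes beside the cluster stayed in a narrower range than Meg3, Mirg and Dio3, while the day 9 change of Dlk1 (0.35) lay within their range. The members were chosen by their knockout differences and these neighbours by position, so the contrast follows in part from the choice. The 10 tested genes before Begain and the 10 after Dio3 changed by between -0.43 and 0.32 on day 7 and between -0.59 and 0.55 on day 9, with medians of 0.01 and 0.10. None of these 20 was called on either day by limma with Benjamini-Hochberg adjustment. Of all genes, 0.203% were called on day 7 and 5.45% on day 9, so a count of 0 among 20 is near those shares. Over both days the 3 with the largest mean change by size were Evl, a regulator of actin (-0.51, adjusted p = 0.0209 in the mean of both days, so called there), 1700001K19Rik (-0.41) and Eml1, a microtubule-binding protein (0.34).

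**Figure D4:**
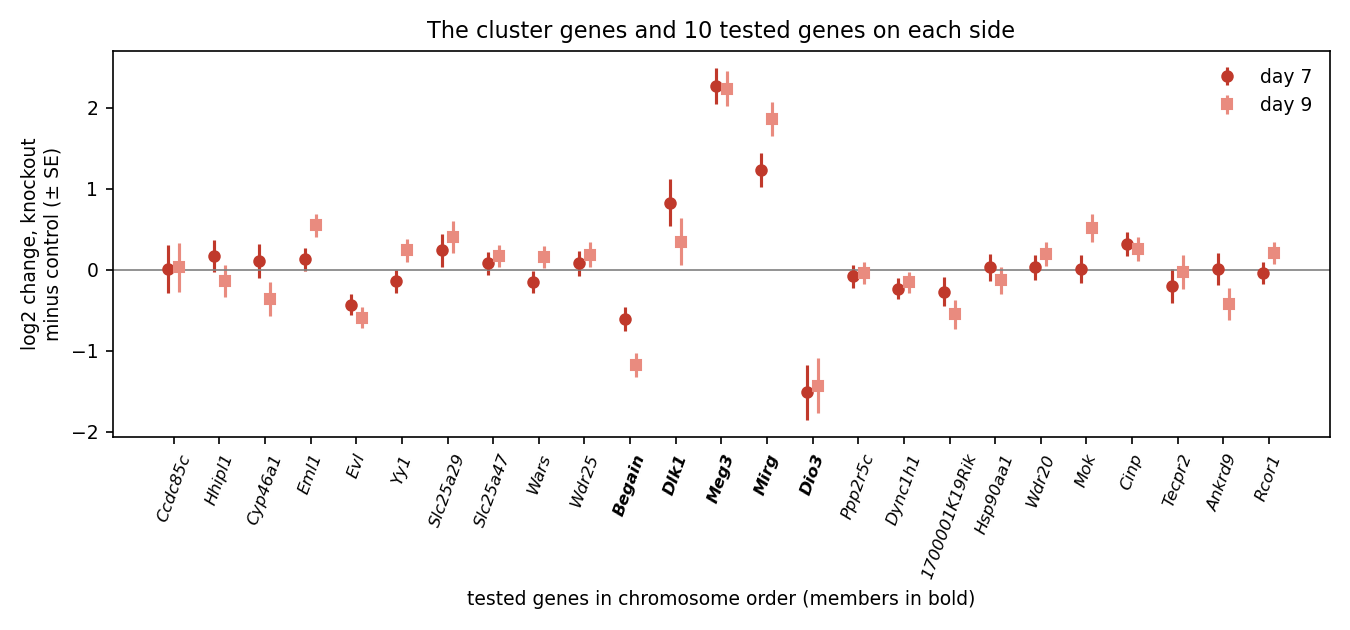
Log2 change, knockout minus control (± SE, 2 arrays per group), of 25 tested genes in their order on chromosome 12, with day 7 as circles and day 9 as squares. The 5 cluster genes are in bold. Meg3 and Mirg stand above the flanking genes, which lie between -0.59 and 0.55, and Dio3 and Begain below 0. Dlk1 on day 9 (0.35) lies within the range of the flanking genes. The members were chosen by their knockout differences, so their wider range follows in part from that choice.

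The time contrasts set day 9 against day 7 within each genotype. The choice of members is not known to have used these contrasts. They, and the interaction further below, share arrays with the knockout differences that it did use, so they are not independent of the choice. In control cells Mirg fell by 0.96 ± 0.21 (log2, adjusted p = 0.0445, limma), and both of its day 9 arrays lay below both of its day 7 arrays. It was the 1 member called, and called lower, among 7, where 7.37% of all genes were called and 3.27% were called lower. The call was lost under normexp correction (adjusted p = 0.107), a median shift (0.0597) and no filter (0.147), without any 1 of the 4 control arrays (0.124 to 0.161) and without either knockout array of day 7 (0.0665), while the change stayed between -1.05 and -0.86.

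Meg3 was nearly level in control cells, at 172% and 179% on day 9 against 209% and 134% on day 7, a change of 0.07 ± 0.22 (adjusted p = 0.876). Interval A changed by 0.03 ± 0.14 (adjusted p = 0.910) and interval B by -0.15 ± 0.16 (0.608) in the control. Begain had 529% and 585% on day 9 against 372% and 435% on day 7 in control cells, a change of 0.47 ± 0.15 that did not pass the test (adjusted p = 0.115). Dlk1 changed by 0.07 ± 0.29 (0.903) and Dio3 by -0.43 ± 0.34 (0.471). None of these 6 changes passed the test.

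In knockout cells, no member was called between the days by limma, where 8.34% of all genes were called, and 1 member had an unadjusted p under 0.05. That was interval A, whose main probe changed by -0.46 ± 0.14 (adjusted p = 0.103). Mirg changed by -0.32 ± 0.21 (0.370), with 264% and 184% on day 9 against 302% and 252% on day 7. Meg3 changed by 0.04 ± 0.22 (0.925), interval B by -0.23 ± 0.16 (0.428), Dlk1 by -0.41 ± 0.29 (0.421), Dio3 by -0.35 ± 0.34 (0.557) and Begain by -0.10 ± 0.15 (0.727).

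**Figure D5:**
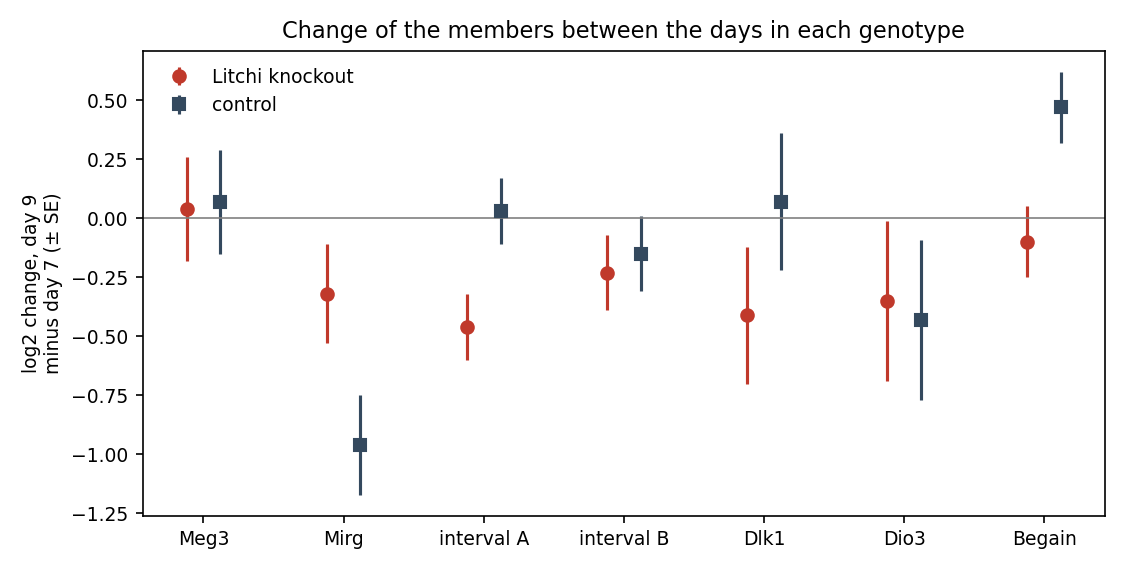
Log2 change, day 9 minus day 7, of the 7 tested members in Litchi knockout cells (circles) and control cells (squares), with ± SE from limma and 2 arrays per group. Mirg in control cells, at -0.96, was the 1 change that passed the test.

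Whether the knockout change itself differed between the days was tested as an interaction, in which 0 members passed by limma and 2 had an unadjusted p under 0.05. Of all genes 0.00406% were called. Those 2 were Begain, at -0.56 ± 0.21 (adjusted p = 0.827), and interval A, at -0.50 ± 0.20 (0.828). For Mirg the difference was 0.64 ± 0.29 (0.846), for Dlk1 -0.48 ± 0.41 (0.902), for Dio3 0.08 ± 0.48 (0.993), for Meg3 -0.03 ± 0.31 (0.996) and for interval B -0.08 ± 0.23 (0.981). The Mirg call in control cells is therefore not shown to differ from the change in knockout cells.

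In the fit of every probe on its own, where 7.55% of probes were called between the days in knockout cells and 6.16% in control cells, 3 other position-named probes of the window passed. A probe in chr12:110842154-110883594_F, inside the bounds, fell by 0.62 ± 0.14 in knockout cells (adjusted p = 0.0486), with 61.6% and 54.8% on day 9 against 94.8% and 84.0% on day 7. In control cells that probe had 27.9% and 28.8% on day 9 against 35.7% and 38.3% on day 7. A probe in chr12:110769101-110771113_F, just before the bounds, fell by 1.40 ± 0.25 in knockout cells (adjusted p = 0.0242), with 10.6% and 8.35% on day 9 against 22.4% and 27.4% on day 7. In control cells it was at 31.2% and 28.5% on day 9 against 27.0% and 41.8% on day 7 (adjusted p = 0.707), and the interaction did not pass (0.871). A probe in chr12:111287772-111333890_F, well beyond the bounds, fell by 0.85 ± 0.18 in control cells (adjusted p = 0.045), with 8.76% and 6.89% on day 9 against 12.8% and 15.4% on day 7. In knockout cells it changed by -0.74 ± 0.18 (adjusted p = 0.0586), and the interaction was 0.11 ± 0.25 (0.975).

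The pattern of the maternal RNAs over the 8 arrays was set against 15025 tested genes with a symbol, by the root mean square difference of log2 profiles centred on their own mean. Nearest to the mean profile of Meg3 and Mirg were Xlr3b (0.18), Xlr4a (0.19), Xlr3a (0.25), Xlr4b (0.25) and Lef1 (0.28), beside a median of 0.99 over all candidates. The Xlr genes are close copies of a family on the X chromosome, so their probes may share targets, and Lef1 is a transcription factor of the Wnt pathway. Interval B stood at 0.12 and interval A at 0.26 from the same profile. Nearest to Dio3 were Dync1i1, an intermediate chain of the dynein motor (0.11), Serpini1, the neuronal serpin (0.23), Insyn2a (0.26), Pcdhb7, a protocadherin (0.27), and Tmem184a (0.27), beside a median of 0.86. Begain stood at 0.56 from Dio3 and Meg3 at 1.90. The members were chosen by their knockout differences on these arrays, so nearness between members follows in part from that choice. All these distances are a description over 8 arrays that share the groups.

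Genes that work with the members' products or their imprint were counted as lists. Of 17 measured imprint regulators, 0 were called by genotype on day 7 and 1, Dnmt3l, was called on day 9, where 5.45% of all genes were called, a share near that of the list. Dnmt3l, a cofactor of the DNA methyltransferases that set imprints in germ cells, fell by 1.71 ± 0.36 in knockout cells on day 9 (adjusted p = 0.0487). It fell by 1.65 ± 0.36 in knockout cells on day 9 relative to day 7 (adjusted p = 0.0417). Of 16 alternatives, the first of these calls was lost in 13 and the second in 11, with unchanged direction. Uhrf1, which recruits the maintenance methyltransferase, fell by 0.70 ± 0.15 there (0.038), and Dnmt3a, a methyltransferase that sets new methylation, rose by 0.80 ± 0.15 in control cells between the days (0.0303); these calls were lost in 12 and 8 of the alternatives. The 5 pluripotent cell markers, in whose cells Dnmt3l is known, had summed levels of 107.2% and 111.9% in knockout and 309.6% and 206.5% in control on day 9, and their part in it was not tested.

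Of 9 measured members of the Polycomb complex to which Meg3 RNA has been reported to bind, 0 were called by genotype on either day. Of all genes, 0.203% were called on day 7 and 5.45% on day 9, so 0 of 9 is near those shares. The histone methyltransferase Ezh2 fell by 0.92 ± 0.18 in control cells between the days (adjusted p = 0.0376). The median log2 change of this list by genotype was -0.01 on day 7 and 0.11 on day 9, when 6 of the 9 lay above control. The largest day 9 changes were Suz12 at 0.63 ± 0.14 (adjusted p = 0.0508, limma), Ezh2 at 0.61 ± 0.18 (0.108), Ezh1 at 0.50 ± 0.14 (0.0859) and Jarid2 at -0.33 ± 0.14 (0.206). Under a median shift 2 of the 9 were called higher in knockout cells on day 9, with a median of 0.33, and the Ezh2 call was lost in 9 of 16 alternatives.

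Of 14 measured thyroid hormone genes, 0 were called by genotype on day 7, against 0.203% of all genes. The list did not move in 1 direction: 7 of the 14 lay above control on each day. Its median log2 change was -0.14 on day 7 and -0.13 on day 9. Of all genes, 1.52% were called higher on day 9. Crym, which binds the hormone inside the cell, rose by 1.60 ± 0.17 in knockout cells on day 9 (adjusted p = 0.0159), a call lost with no filter and without control replicate 1, knockout replicate 1 or knockout replicate 2 of that day. Dio2, the deiodinase that activates the hormone, changed by 1.72 ± 0.38 on day 9, which did not pass the test (0.0535). Between the days Crym rose by 1.79 ± 0.17 in knockout cells (adjusted p = 0.00608) and by 0.99 ± 0.17 in control cells (0.0278), the control call lost in 6 of 16 alternatives.

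Of 15 measured genes of the Notch pathway, to which Dlk1 is related, 1 was called higher in knockout cells on day 7 and 3 on day 9, and 0 were called lower, against 0.0934% and 1.52% of all genes called higher. On day 7, 6 of the 15 lay above control with a median of -0.13, and on day 9, 11 did with a median of 0.25. Heyl, a target of Notch, rose by 1.19 ± 0.13 on day 7 (adjusted p = 0.0392) and by 2.21 ± 0.13 on day 9 (0.0057). Hes5, another target, rose by 1.85 ± 0.34 (0.0359) and the ligand gene Dll3 by 0.93 ± 0.16 (0.0335) on day 9. Under a median shift 6 of the 15 were called higher on day 9. The day 7 call of Heyl was lost in 8 of 16 alternatives, among them normexp and each single day 7 array left out. Heyl on day 9 was lost in 2 of 16 alternatives (without knockout replicate 2 and with no filter), Hes5 in 6 and Dll3 in 8. In control cells these 3 genes fell between the days, Heyl by 2.02 ± 0.13 (adjusted p = 0.00594), Hes5 by 1.61 ± 0.34 (0.0423) and Dll3 by 0.98 ± 0.16 (0.0238). Of 16 alternatives, the Heyl call was lost in 1 (without control day 7 replicate 2), the Hes5 call in 9, among them each array left out, and the Dll3 call in 5. In knockout cells Heyl fell by 1.00 ± 0.13 between the days (0.01), while Notch2, a receptor, rose by 1.09 ± 0.19 (0.0225) and Hey1, a target, by 0.78 ± 0.12 (0.0154). These calls were lost in 4, 5 and 5 alternatives. Progenitor cells are known to express these genes, and the 4 progenitor markers had summed levels of 6679% and 7998% in knockout and 6222% and 6894% in control on day 9. All 4 markers were higher in knockout cells that day and 2 were called, where 1.52% of all genes were called higher. The markers' part in the Notch values was not tested. Of 11 measured relatives of Rtl1, 0 were called in any of the 5 comparisons by limma, where between 0.00406% and 8.34% of all genes were called. Quantile scaling called 1 of the 11 higher in control cells between the days.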

How the data were processed

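RNA of 8 samples was hybridised to 1-colour Agilent mouse arrays and the submitters' processing notes name Agilent Feature Extraction 10.5.1 for reading the images. The deposited processed signal is a spot intensity corrected for background within the array, per the file headers, with a deposited flag for spots well above background. A deposited log2 table, made by the authors with scaling and baseline unstated, served as an alternative. Of 62976 spots per array, 3671 control spots and outlier spots were left out, and spots of 1 probe were averaged. The value used was log2 signal minus the array's 75th percentile. The brightest kept probe stood for a gene. The files held no gene name column, so probes were named through RefSeq accessions and a gene table on GRCm38.p6: 26300 of 55681 probes (47.2%) got a symbol. Array positions are on mm9.

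All 8 arrays entered 1 limma 3.58.1 fit (R 4.3.3, lmFit and eBayes, 4 residual and 2.53 prior degrees of freedom, two-sided), with Benjamini-Hochberg adjustment over 24623 genes and calls under 0.05. Probes with a missing value (51) were left out. No mean signal column exists, so normexp used the median signal. The members and lists were chosen with earlier results of these data known. Named are all members, window probes called between the days or in the interaction, the 3 flanking genes with the largest mean change, the 5 nearest profiles and at most 4 genes per list. Alternatives were other background corrections, scalings, filters, probe rules, a replicate block and leaving out each array. The number of arrays limits the precision. One result of the thyroid hormone list is not reported here.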

Additional observations from a re-analysis of the deposited data

How the results depend on the processing

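The Meg3, Mirg, interval, Dio3 and Begain changes by genotype kept their direction under all alternatives run. The members were chosen by these changes, so the kept direction is a description. Values of 538 of 597 alternatives stayed on their side of the threshold or within the spread. Several alternatives could not move a change by genotype, so this count does not measure how firm the changes are. The replicate block and leaving out an array of the other day alter its spread alone. A filter moves it only through the probe used. Genes called by genotype on day 7 (50) became 21 under normexp, 0 with no filter, 183 with only probes above background on all 8 arrays, 76 with every probe on its own and 102 with the replicate block. On day 9 (1343) they became 329 under normexp, 2046 under a median shift and 1 with no filter. Between the days, 2053 in knockout cells became 864 under normexp and 477 with no filter, and 1815 in control cells became 684 and 75. Members called fell to 0 with no filter on day 7 (of 3) and day 9 (of 5), and in control cells between the days (of 1) to 0 under normexp, a median shift and no filter. The single gene called in the interaction became 0 under normexp, quantile scaling, a median shift, the deposited table, no filter, the all-array filter, every probe on its own and the replicate block. Without 1 array, genes called ran from 0 to 125 and members from 0 to 3 on day 7, and 7 to 749 and 0 to 5 on day 9. Between the days they ran from 439 to 1983 and 0 to 0 in knockout cells, and 8 to 1318 and 0 to 1 in control cells, and in the interaction from 0 to 1 and 0 to 0. The cause of these shifts was not tested beyond the alternatives' own construction.

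The reversed values were of changes that were not called and ran between -0.35 and 0.35 as reported. A median shift turned Begain in knockout cells between the days to 0.07 and, in the interaction, Meg3 to 0.07 and interval B to 0.02, and the mean of its probes gave Meg3 0.00 there. Leaving out 1 array turned others. By genotype on day 9, Dlk1 ran from -0.02 to 0.72. In knockout cells between the days, Meg3 ran from -0.03 to 0.11, Dio3 from -0.72 to 0.02 and Begain from -0.20 to 0.01. In control cells, Meg3 ran from -0.26 to 0.39, Dlk1 from -0.30 to 0.45, interval A from -0.03 to 0.10 and interval B from -0.32 to 0.02. In the interaction, Meg3 ran from -0.35 to 0.29, Dio3 from -0.33 to 0.49 and interval B from -0.25 to 0.10.

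A median shift moved the median of all genes by genotype on day 9 to 0.21, against -0.02, and the share of calls that were higher to 69.65%, against 27.85%. That share became 58.49% against 46.0% on day 7, 68.25% against 49.73% in knockout cells between the days, and 67.59% (normexp 68.71%) against 55.65% in control cells. Same-numbered arrays of knockout and control deviated together on day 7 (correlation 0.464) and oppositely on day 9 (-0.248). Over the other pairs of groups the correlation was 0.311 (knockout day 7, control day 9), 0.248 (control day 7 and day 9), 0.038 and -0.025, so the numbers are not taken to pair the samples. The replicate block called 2011 genes and 6 members by genotype on day 9, against 1343 and 5. A replicate block with the numbers of the knockout arrays of day 9 swapped, added after seeing the data, called 2608 genes. The slide or scan could not be a block, since all arrays share 1 of each.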
